A study of Sus scrofa with 9 samples.

Results

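In whole blood of miniature pigs given oral azide, 200 array probes were set apart because all 3 arrays taken 6 h after feeding lay below all 3 arrays taken before feeding and all 3 taken at 24 h. They were chosen by value from 43566 probes in the deposited table of intensities. A score was computed for each probe on the log2 scale, as the lowest of its 6 values before feeding and at 24 h minus the highest of its 3 values at 6 h. Probes with a mean intensity of 50 or more both before feeding and at 24 h were eligible, 13396 in all, and the 200 highest scores were taken. A low value at 6 h and a return by 24 h are therefore properties of the choice, and the values at these times are given below as a description without a test. The 200 probes stand for at most 185 separate targets, since 26 of them fall into 11 sets that share a transcript or a gene.

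Blood came from male, specific-pathogen-free pigs of the Clawn miniature breed, which was bred small for laboratory use, and whole blood RNA was measured. The groups were blood taken before feeding (0 h), blood at 6 h and blood at 24 h after oral AZIDE at 300 µg/kg (0.01 of the LD50 according to the design text), with 3 arrays per group and 9 in all. The age is 7 months in one label and 7 weeks in another, and whether equal replicate numbers stand for one animal is not said, so the spread between arrays may be partly technical. No untreated pigs at 6 h or 24 h were analysed here, and each time point lay on a slide and scan of its own, so dose, feeding, time of day and slide cannot be told apart. Each array carried 43803 probe spots, and the share well above background was between 39.94% and 46.55% for arrays before feeding, between 42.43% and 47.81% for 6 h arrays, and between 45.45% and 56.6% for 24 h arrays. Markers of the blood lineages were present: 10 of 12 T cell, 6 of 6 neutrophil, 9 of 11 monocyte and 6 of 6 platelet marker genes with a named probe were well above background on all 9 arrays.

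The azide ion poisons respiration by binding to cytochrome c oxidase, with which the electron transport chain of mitochondria ends. Whole blood RNA is a mixture of the RNA of lymphocytes, neutrophils, monocytes, platelets and immature red cells. Lymphocytes are rich in transcripts of ribosomal proteins and translation factors, whereas mature neutrophils carry few of them and many transcripts of granule and inflammatory proteins. In bulk blood, fewer cells of a type and less RNA per cell cannot be told apart.

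A gene name could be given to 55 of the 200 probes, 29 through a gene symbol and 26 through a described protein or transcript, which gave 49 different names. Names taken from a description rest on similarity to the described human, mouse, bovine, chicken, horse or warthog sequence. Of the 145 probes without a name, 100 were cDNA clones without a gene, 24 were annotated only as unknown and 21 were contigs with a weak or uninformative similarity. The named probes fell into ribosomal proteins (14 probes), translation factors (5), RNA-binding proteins (5), mitochondrial genes (7), nuclear proteins (6), lymphocyte surface proteins (3), metabolic enzymes and related proteins (3), and 12 others.

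All probes on the array were 60 bases long, and 7 that carry the named results are shown here as printed on the array, 5′ to 3′, together with the unnamed partner of 1 of them. LANCL1 had the second highest score of the named probes, and its probe shares a run of 37 bases with the unnamed member A_72_P210332. In this pair the capitals mark the shared run.
LANCL1, A_72_P055126: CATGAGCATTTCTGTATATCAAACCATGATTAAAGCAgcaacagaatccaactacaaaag
A_72_P210332: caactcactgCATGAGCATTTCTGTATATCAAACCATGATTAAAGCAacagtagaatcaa
The other 6 stand for the ribosomal proteins, the translation factors, the metabolic enzymes and the lymphocyte surface proteins. Their capitals mark the codons of a forward reading frame without a stop codon.
RPS18, A_72_P360788: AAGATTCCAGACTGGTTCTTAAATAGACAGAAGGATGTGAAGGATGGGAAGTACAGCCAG
RPL10, A_72_P052661: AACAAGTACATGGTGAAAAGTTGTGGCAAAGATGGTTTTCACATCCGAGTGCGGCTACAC
EEF1G, A_72_P020961: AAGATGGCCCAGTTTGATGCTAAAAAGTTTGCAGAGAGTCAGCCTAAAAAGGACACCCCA
LDHB, A_72_P321168: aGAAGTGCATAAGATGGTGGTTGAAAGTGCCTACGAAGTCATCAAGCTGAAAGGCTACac
GPR171, A_72_P396388: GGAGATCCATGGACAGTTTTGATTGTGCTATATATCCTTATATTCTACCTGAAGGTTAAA
CD3D, A_72_P185936: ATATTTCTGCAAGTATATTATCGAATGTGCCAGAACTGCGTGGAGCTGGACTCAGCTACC
A forward frame without a stop codon ran through 154 of the 200 probes (77%), against 75.4% of the eligible probes.

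Over the eligible probes, 603 (4.5%) had a score above 0, and 701 (5.23%) showed the opposite order, with all 3 arrays at 6 h above the other 6. Without 6 h replicate 2 the 603 became 2655, without replicate 2 before feeding 1616 and without 6 h replicate 1 986. The highest score was 1.51, the second was 0.84, the median of the 200 was 0.29 and the lowest was 0.18. At the edge of the choice the scores ran on without a gap. The last probe inside, A_72_P424534, had 736 as its highest intensity at 6 h and 834 as its lowest elsewhere, A_72_P398418 had 402 and 456, and A_72_P254947, a mesenteric lymph node clone, had 721 and 818. Just outside, the RPSA probe A_72_P004351 had 4799.6 and 5432, the unknown A_72_P193217 had 949 and 1073, and the liver clone A_72_P322238 had 86.1 and 97.5.

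**Figure D1:**
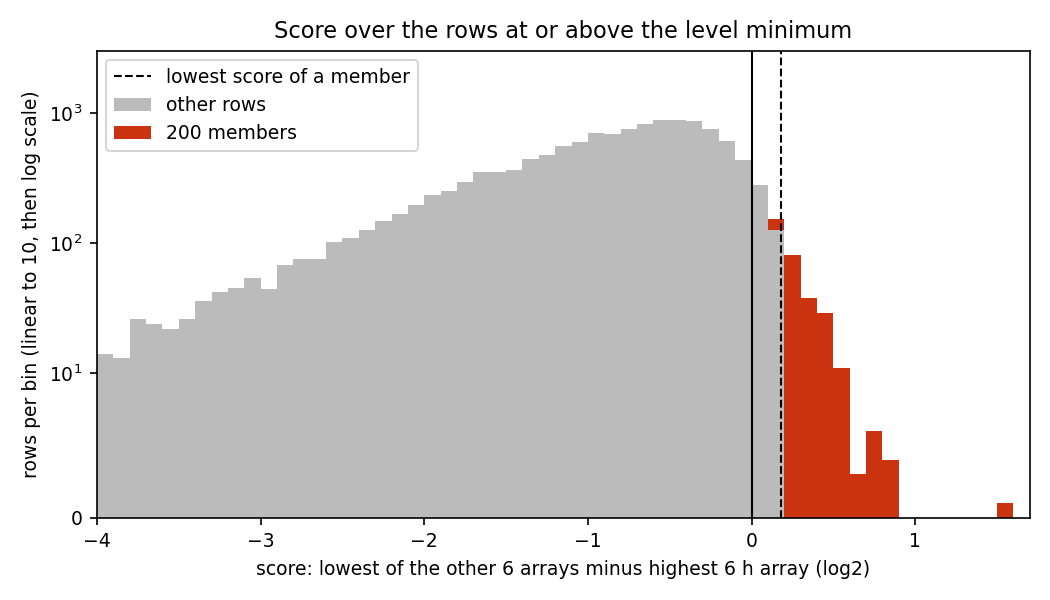
Histogram of the score (x axis, log2 units, shown from -4 upward, with 73 lower scores left out) over the 13396 eligible probes. The y axis is the number of probes per bin, linear up to 10 and logarithmic above. Red marks the 200 chosen probes, which form the right tail from 0.18 (dashed line) to 1.51.

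On the deposited log2 scale the mean of the 3 arrays at 6 h was below the mean before feeding by a median of 1.03 over the 200 probes (difference -1.03, range -2.33 to -0.34), against a median difference of -0.10 over the eligible probes. Against 24 h the median difference of 6 h was -0.95 (range -2.56 to -0.32), against -0.06 over the eligible probes. At least 2-fold lower values at 6 h were found for 105 probes against before feeding, for 92 against 24 h and for 78 against both. The 3 arrays at 6 h were not equally low. Replicate 3 was the lowest of the 3 for 143 probes, replicate 1 for 40 and replicate 2 for 17, and replicate 2 was the highest for 135. The median over the 200 probes of log2 intensity minus each probe's mean was 0.60, 0.13 and 0.42 before feeding, -0.55, -0.39 and -0.98 at 6 h, and 0.26, 0.11 and 0.48 at 24 h. Before feeding, replicate 2 stood nearest to the 6 h arrays: it was the lowest of the other 6 for 80 probes, and 24 h replicate 2 was so for 52.

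**Figure D2:**
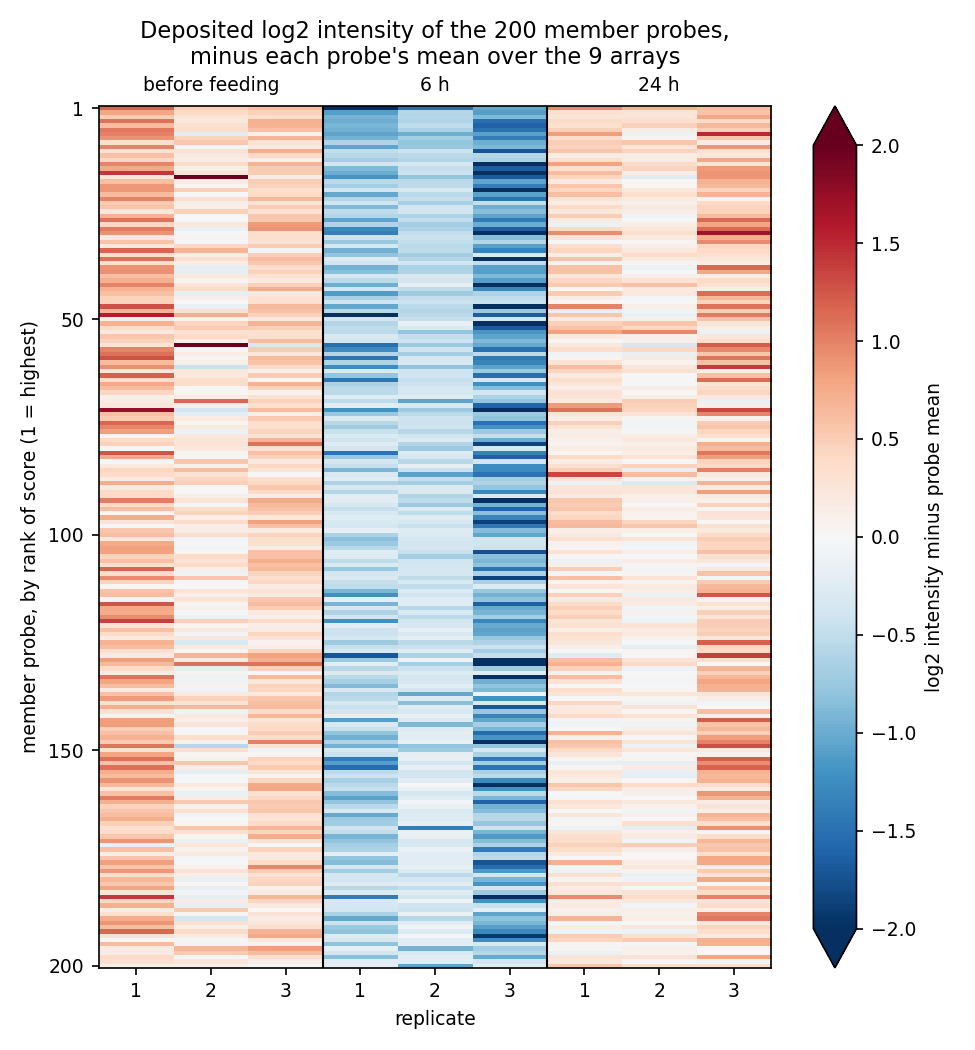
Heat map of the 200 probes (rows, by rank of score) on the 9 arrays (columns, replicates 1 to 3 at each time), coloured by deposited log2 intensity minus the probe's mean over the 9 arrays. The 6 h columns are blue in every row by the choice of the probes, darkest in replicate 3, which was the lowest 6 h array for 143 probes.

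The 24 h arrays were chosen only to lie above 6 h, not to match the level before feeding. On the deposited scale the difference of 24 h from before feeding had a median of -0.09 over the 200 probes (range -0.67 to 0.57), with 131 probes lower and 69 higher at 24 h, against a median of 0.00 over the eligible probes. Within 0.25 of their log2 level before feeding were 135 probes (67.5%), against 41.1% of the eligible probes, 48 were lower at 24 h by more than that and 17 were higher. Because the rule keeps only probes whose 6 values before feeding and at 24 h all lie above 6 h, nothing is read from this share.

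How far the order of the arrays held depended on the scaling. The deposited values behave like quantile-normalized signal. When the scanner's processed signal was quantile normalized here, all 200 probes kept all 3 arrays at 6 h below the other 6. When each array was instead divided by its 75th percentile, 163 of the 200 did, against 351 of 13393 eligible probes (2.62%), 182 did after division by the array median and 157 did with normexp background correction. Of the 37 that lost the order, 32 had a mean intensity of 1000 or more, against 23 of the 163 that kept it. The order held for 5 of 14 ribosomal protein probes and 2 of 5 translation factor probes, but for 6 of 7 mitochondrial, 5 of 6 nuclear and 3 of 3 lymphocyte probes.

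The highest score of all belonged to A_72_P433759, a cDNA clone without a gene name. Its intensity was 69.8, 43.5 and 47.7 before feeding, 7.70, 11.02 and 15.3 at 6 h, and 59.96, 50.6 and 47.9 at 24 h. Only 1 of the 3 arrays at 6 h was well above background for this probe, so its level there was near the detection limit. The second highest score belonged to A_72_P315798, with 276, 212 and 221 before feeding, 74.7, 107 and 74.7 at 6 h, and 198.9, 193 and 239 at 24 h. A_72_P354593, at rank 6, had 7541, 4609 and 5407 before feeding, 1858, 2329 and 1283 at 6 h, and 5032, 4004 and 5038 at 24 h. These 2 probes come from contigs described by the same mouse protein entry, share a run of 23 bases with each other, and share runs of 23 and 33 bases with one of the RPS18 probes, so all 3 may read related transcripts. A_72_P230407, a backfat clone, and A_72_P055011, a testis clone, completed the first 5 unnamed probes. A_72_P230407 had 339, 289 and 309 before feeding, 127, 163 and 132 at 6 h, and 287, 289.8 and 414 at 24 h. A_72_P055011 had 134, 57.5 and 70.5 before feeding, 31.8, 33.8 and 31.5 at 6 h, and 119, 61.3 and 187 at 24 h.

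Nuclear proteins held the highest score among the named probes. ZNF271, a zinc finger protein, had 153, 84.6 and 119 before feeding, 36.6, 48.0 and 25.6 at 6 h, and 93.1, 90.6 and 94.8 at 24 h. The difference of 6 h from before feeding was -1.70 on the deposited log2 scale and -1.68 ± 0.32 (limma difference ± SE, n = 3 per group) on the scanner scale. A probe similar to a chicken CCAAT-binding protein had 331, 382 and 319 before feeding, 174, 153 and 133 at 6 h, and 368, 386 and 293 at 24 h. The highest 6 h array lay below the lowest other array by its score of 0.75 on the log2 scale, and the 24 h values overlapped those before feeding. RAD50, part of the complex that holds broken DNA ends together, had 528, 262 and 378 before feeding, 110.3, 200.6 and 94.7 at 6 h, and 339, 354 and 519 at 24 h. Replicate 2 was here the highest at 6 h and the lowest before feeding, and the mean difference of 6 h from before feeding was -1.55 on the deposited log2 scale. PTMA, the acidic nuclear protein prothymosin alpha, entered with 3 probes from 3 contigs. Their deposited differences were -0.96, -0.70 and -0.68 at 6 h against before feeding, and 0.05, 0.19 and 0.09 at 24 h against before feeding.

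LANCL1, a cytoplasmic glutathione-binding protein related to bacterial lantibiotic cyclases, had 129, 104 and 137 before feeding, 44.6, 59.1 and 27.5 at 6 h, and 104, 118 and 133 at 24 h. The highest 6 h array was replicate 2, and 24 h overlapped the level before feeding. The difference of 6 h from before feeding was -1.55 ± 0.31 (limma difference ± SE, n = 3 per group) on the scanner scale. The overlapping unnamed probe A_72_P210332 had 564, 474 and 574 before feeding, 344, 406 and 184 at 6 h, and 463, 491 and 504 at 24 h, a smaller difference of -0.86 on the deposited log2 scale, against -1.56 for LANCL1.

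RNA-binding proteins gave 5 of the 200 probes. HNRNPA1, an abundant nuclear protein that packages pre-mRNA, had 657, 549 and 528 before feeding, 309, 330.1 and 318 at 6 h, and 619, 551 and 846 at 24 h. Its SD over the 3 arrays at 6 h was 0.05 on the log2 scale, the second smallest of the named probes after EIF4A1. All other HNRNPA1 probes were higher at 6 h than before feeding, by 0.21 to 0.30 (deposited log2 scale), as given below. PSPC1, a component of nuclear paraspeckles, had 257, 167 and 216 before feeding, 83.1, 110.4 and 48.6 at 6 h, and 192, 208 and 275 at 24 h, with replicate 3 the lowest at 6 h. SLIRP, which binds and stabilizes mitochondrial mRNA, had 609, 476 and 569.7 before feeding, 259, 252 and 226 at 6 h, and 345, 358 and 539 at 24 h. At 24 h SLIRP was still lower than before feeding by 0.44 (difference -0.44, deposited log2 scale), with 2 of the 3 arrays at 24 h below all 3 before feeding. SRSF1, a splicing factor, had 3916, 2144 and 2466 before feeding, 1516, 1769.7 and 1642 at 6 h, and 2310.2, 2161 and 2961 at 24 h. For SRSF1 the 3 arrays at 6 h were no longer wholly below the others once arrays were divided by their 75th percentile.

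Ribosomal proteins, the protein part of the ribosome, were the largest named group, with 14 probes for 13 genes: RPL4, RPL7, RPL7A, RPL10, RPL17, RPL18, RPL27, RPL37, RPLP0, RPS16, RPS18, RPS23 and RPS26. On the deposited log2 scale the difference of 6 h from before feeding ran from -2.33 to -0.57 over the 14 probes, with a median of -1.05. The difference of 24 h from before feeding had a median of -0.12 and was negative for 10 of the 14. RPL7A had 10009, 7161 and 4319.9 before feeding, 2295, 3165 and 1768 at 6 h, and 6015, 5220.4 and 5913 at 24 h. RPS18 had 17664, 12296 and 16884 before feeding, 7520.1, 9118 and 4522 at 6 h, and 13673, 11872 and 17085 at 24 h on the probe shown above. Its second probe had 33277, 22879 and 30119 before feeding, 14220.1, 19898 and 8262 at 6 h, and 27838, 23636 and 32641 at 24 h. In both RPS18 probes 6 h replicate 3 was the lowest array and replicate 2 the nearest to the other times.

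RPS16 had 12878, 9722 and 12359.8 before feeding, 4948, 5733 and 3271 at 6 h, and 9029, 7423 and 9288 at 24 h. RPS23 had 26916, 15781 and 17387 before feeding, 8411, 10461 and 6005 at 6 h, and 16652, 13189 and 20094 at 24 h. By the mean both were below their level before feeding at 24 h, with differences of -0.44 for RPS16 and -0.25 for RPS23 on the deposited log2 scale. RPLP0, the stalk protein of the large subunit, had 4647, 4782 and 5256 before feeding, 3586, 3629 and 2768 at 6 h, and 5181, 4722 and 4986 at 24 h. RPL10, another large-subunit protein, had 18038, 20243 and 21468 before feeding, 14337, 13302 and 12578 at 6 h, and 19392, 19224 and 22231 at 24 h. These 2 had the smallest ribosomal differences at 6 h, -0.57 for RPLP0 and -0.57 for RPL10 on the deposited log2 scale, and their direction at 24 h against before feeding turned with the scaling. RPL37 had 111.3, 61.9 and 51.3 before feeding, 8.98, 25.8 and 11.97 at 6 h, and 54.6, 34.2 and 77.0 at 24 h. Only 1 of the 3 arrays at 6 h was well above background for this probe, so its difference of -2.33 on the deposited log2 scale rests on values near the background. Another RPL37 probe, A_72_P031251, had 90371, 36630.3 and 47398 before feeding, 19596, 39029 and 18409.5 at 6 h, and 35606, 34957 and 74346 at 24 h, a difference of -1.16, with 6 h replicate 2 above replicate 2 before feeding. The third RPL37 probe, A_72_P357413, was under the level minimum and differed by 0.54. For RPL17 the difference at 24 h against before feeding, -0.67, was the most negative of all 200 probes. RPL17 had 6005, 3534 and 4349 before feeding, 1554, 2243 and 1116 at 6 h, and 2557, 2549 and 3481 at 24 h, so all 3 arrays at 24 h were also below all 3 before feeding.

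The return of the ribosomal proteins at 24 h moved with the scaling. One probe per gene was taken for 37 ribosomal protein genes of a list, whether or not it was a member. The median limma difference of 24 h from 6 h was 0.05 with arrays divided by their 75th percentile, with 21 genes higher and 16 lower at 24 h, 0.17 with the array median and 0.31 with normexp background correction. It was 0.68 after quantile normalization and 0.66 on the deposited values, with 35 of 37 higher in each. At 24 h against before feeding the same list had a median of -0.65 with the 75th percentile, of -0.34 with normexp, and of -0.10 after quantile normalization and on the deposited values. The difference of 6 h from before feeding moved less, from -0.55 to -0.80 over the 5 scalings, with 36 or 37 of 37 genes lower and 0 past the threshold.

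Translation factors were present with 5 probes for 4 genes. EEF1G, a subunit of the complex that recharges elongation factor 1, had 9413, 11310.2 and 10695 before feeding, 7134, 6037 and 5227 at 6 h, and 10218, 8832 and 9055 at 24 h on its first probe. The second EEF1G probe, A_72_P402748, differed by -0.50 at 6 h against before feeding, against -0.78 for the first (deposited log2 scale). EIF4A1, the helicase that unwinds mRNA for initiation, had the smallest difference of all 200 probes, -0.34, with 584, 541 and 523 before feeding, 426, 430.4 and 443 at 6 h, and 554, 524 and 725 at 24 h. EIF5 and EIF5B, both needed to join the ribosomal subunits, differed by -0.9997 and -0.90. A probe similar to pro-ubiquitin, a precursor from which the protein tag ubiquitin is cut, had 40614, 19286 and 27739 before feeding, 9174, 13595 and 7151 at 6 h, and 21661, 19137 and 41775 at 24 h. It lost the full separation of 6 h once arrays were divided by their 75th percentile.

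**Figure D3:**
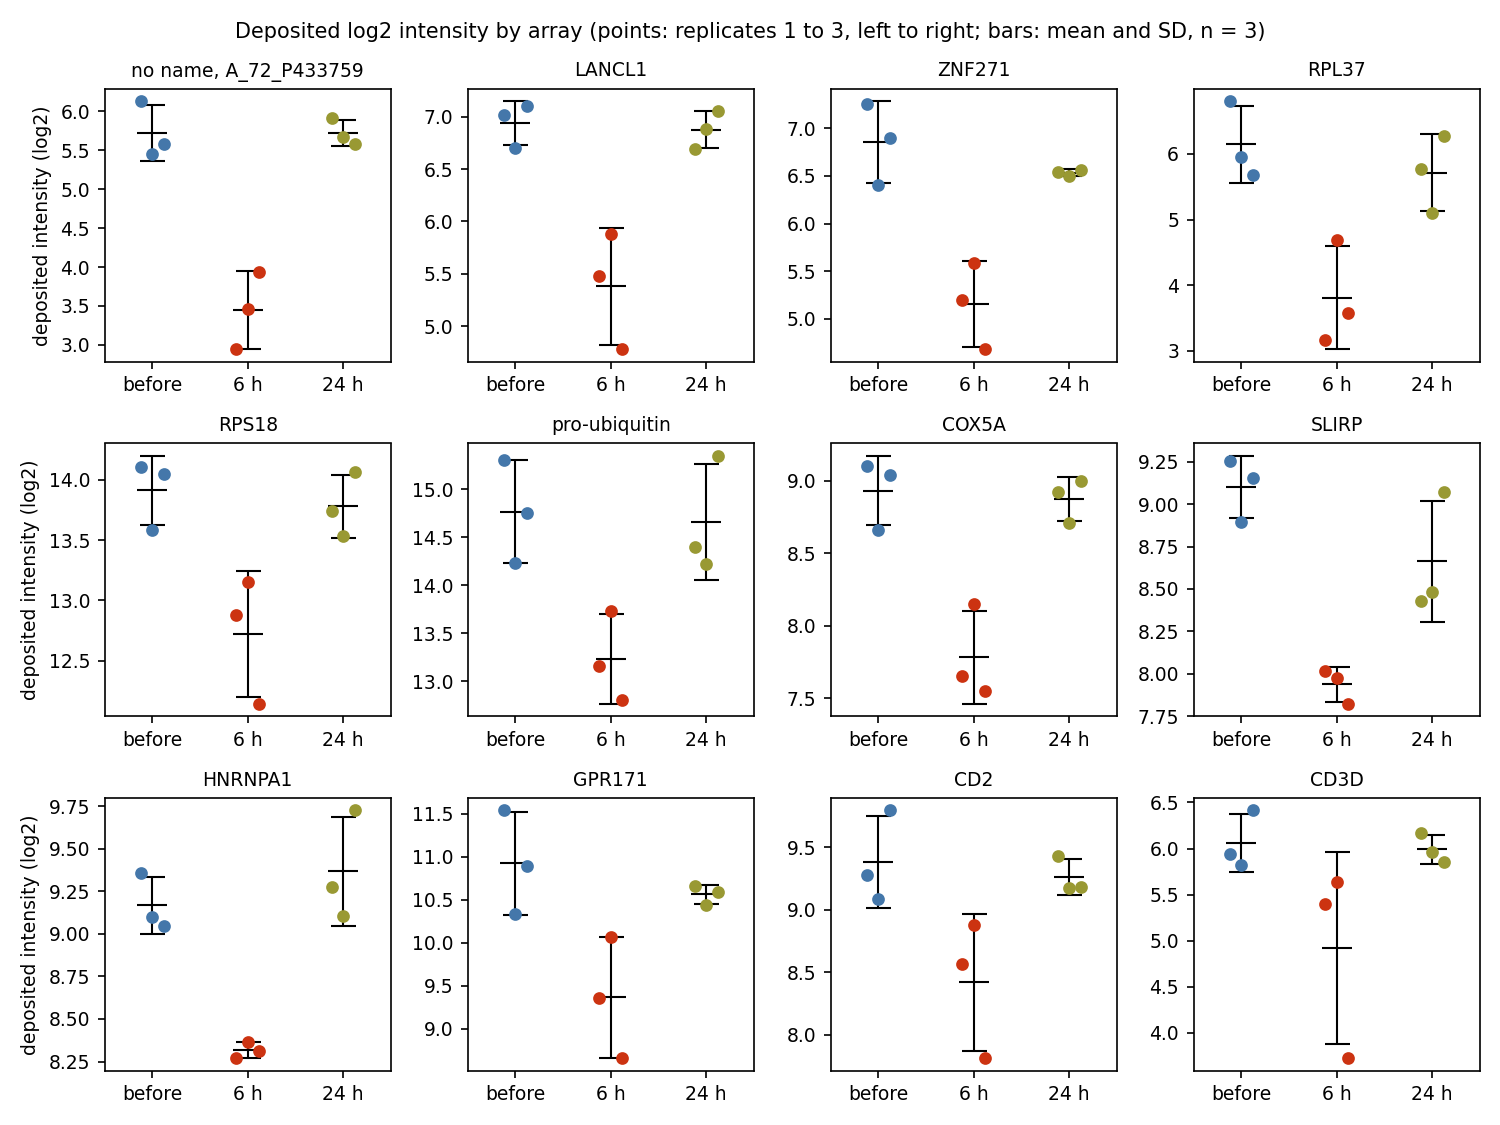
Deposited log2 intensity (y axis) of 12 of the 200 probes before feeding, at 6 h and at 24 h (x axis). Points are replicates 1 to 3 from left to right, and bars are the mean and SD (n = 3). In every panel the 3 points at 6 h lie below the other 6, by the choice of the probes, with RPL37 and CD3D among the widest at 6 h and HNRNPA1 and SLIRP among the tightest.

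Mitochondrial genes gave 7 probes. COX5A, a nuclear-encoded subunit of cytochrome c oxidase, had 549, 404 and 525 before feeding, 200.9, 284 and 187 at 6 h, and 485, 418 and 511 at 24 h. Its difference of 6 h from before feeding was -1.14 ± 0.28 (limma difference ± SE, n = 3 per group) on the scanner scale, and of 24 h from before feeding -0.06 on the deposited log2 scale. Of 34 eligible probes named by symbol for respiratory chain and ATP synthase genes, 0 were members and 3 had all 3 arrays at 6 h lowest, against 4.5% of all eligible probes. A pair of probes read RNA of the mitochondrial genome itself, by similarity to warthog and horse sequences. The probe of the 12S and 16S rRNA region had 1269, 2519 and 1566 before feeding, 800.4, 546 and 665 at 6 h, and 1302, 1597 and 1024 at 24 h. The other, matching mitochondrial DNA, had 1799.8, 1667 and 1367 before feeding, 1104, 649 and 492 at 6 h, and 3452, 2104 and 1555 at 24 h. In contrast to most members, both had their highest 6 h value in replicate 1. At 24 h the rRNA probe was lower than before feeding by the mean (-0.41, deposited log2 scale) and the other was higher (0.49).

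TOMM7, a small subunit of the import pore in the outer membrane, had 2 probes that share a run of 54 bases. The first gave 1248, 923 and 1313 before feeding, 748, 766 and 619.5 at 6 h, and 943, 1008 and 1431 at 24 h. The second gave 1194, 853 and 1162 before feeding, 639, 709.6 and 557 at 6 h, and 886, 913 and 1262 at 24 h. Both put the same arrays highest and lowest at 6 h, and with so long an overlap they are not separate measurements. ACADS, which starts the breakdown of short-chain fatty acids in mitochondria, had 43.2, 64.8 and 50.002 before feeding, 34.8, 30.3 and 34.1 at 6 h, and 49.04, 44.4 and 59.997 at 24 h. CHCHD7, a small protein of the intermembrane space, had 876, 666 and 715 before feeding, 335, 402 and 211 at 6 h, and 472, 498 and 538 at 24 h. For CHCHD7 all 3 arrays at 24 h were also below all 3 before feeding, with a difference of -0.58 on the deposited log2 scale.

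HILPDA, a lipid droplet protein induced by low oxygen, had 205, 204 and 186 before feeding, 143, 133 and 106 at 6 h, and 237, 219.6 and 191 at 24 h, with 24 h overlapping the level before feeding. LDHB, the lactate dehydrogenase subunit of heart and lymphocytes, had 7332, 4484 and 5382 before feeding, 2695, 3733 and 3015 at 6 h, and 4301, 4415 and 6743 at 24 h on the probe shown above and differed by -0.85 at 6 h against before feeding. Its second member probe differed by -0.75 (deposited log2 scale). The remaining named probes had mixed or unknown roles. CCDC50, a ubiquitin-binding signalling protein, had 436, 286 and 359 before feeding, 175, 209 and 195 at 6 h, and 287, 302 and 565 at 24 h. A probe similar to mouse LNR42 had 288, 183 and 246 before feeding, 91.8, 128 and 87.9 at 6 h, and 280.3, 235 and 298 at 24 h. IDO1, the first enzyme of tryptophan breakdown, had 254, 211 and 209 before feeding, 167, 127 and 155 at 6 h, and 217, 206 and 220.5 at 24 h, and rested on similarity to part of the human protein. A probe similar to the human entry C14orf111 had 836, 552 and 749.8 before feeding, 377, 427 and 303 at 6 h, and 598, 603 and 701 at 24 h. A probe similar to LOC124512 had 166, 127 and 166 before feeding, 85.2, 103 and 51.7 at 6 h, and 155, 151 and 224 at 24 h. In both, 6 h replicate 3 was the lowest array. Probes similar to the human entries LOC400590 and PHGDHL1 and the PPP1CC probe, for a catalytic subunit of protein phosphatase 1, differed by -1.71, -1.15 and -0.97 in that order at 6 h against before feeding (deposited log2 scale).

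The 3 members of the lymphocyte group encode lymphocyte surface proteins. GPR171, a G protein-coupled receptor of T cells, had 2972, 1288 and 1902 before feeding, 656, 1075 and 403 at 6 h, and 1613, 1391 and 1539.5 at 24 h. CD2, an adhesion receptor of T cells and natural killer cells, had 622, 543 and 889.5 before feeding, 379.7, 469 and 224 at 6 h, and 690.0, 579 and 581 at 24 h. CD3D, a chain of the T cell receptor complex, had 61.5, 56.4 and 85.3 before feeding, 42.2, 49.6 and 13.2 at 6 h, and 71.8, 62.2 and 57.7 at 24 h. In all 3 the lowest array was 6 h replicate 3 and the nearest to the other times was 6 h replicate 2, and for CD3D 2 of the 3 arrays at 6 h were well above background. The limma differences of 6 h from before feeding were -1.44 ± 0.39 for GPR171, -0.94 ± 0.33 for CD2 and -1.08 ± 0.44 for CD3D (± SE, n = 3 per group, scanner scale). Another CD3D probe, A_72_P014531, is not a member, with 7367, 3748 and 4625 before feeding, 1994, 3219.6 and 788 at 6 h, and 4229, 3017 and 3289 at 24 h. There 6 h replicate 2 lay above 24 h replicate 2. Another eligible CD2 probe, A_72_P131826, had 125, 130.1 and 126 before feeding and 114, 152 and 58.6 at 6 h. Its difference of 6 h from before feeding was -0.34 on the deposited log2 scale, with 6 h replicate 2 above all arrays before feeding. For GPR171, a further probe, A_72_P009146, had 204.7, 75.2 and 149.9 before feeding and 69.2, 103 and 46.2 at 6 h. It differed by -0.94, with 6 h replicate 2 above replicate 2 before feeding.

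CD36, a fatty acid receptor of monocytes and platelets, was the only member among 18 eligible monocyte marker probes, with 45.1, 64.7 and 70.4 before feeding, 12.3, 25.99 and 28.7 at 6 h, and 34.0, 41.1 and 104 at 24 h. It was well above background on 2 of the 3 arrays at 6 h. Another CD36 probe, A_72_P303204, had 264, 197 and 359.6 before feeding, 64.5, 197 and 123 at 6 h, and 211, 263 and 676 at 24 h, with 6 h replicate 2 level with the lowest array before feeding. STMN1, a microtubule-destabilizing protein of dividing cells, had 2151, 1518 and 2420.2 before feeding, 765, 1319 and 668 at 6 h, and 1845, 1634 and 1868 at 24 h, and was the only member among 24 eligible cell division probes.

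Other probes for the same transcripts or genes were not picked by the rule, although they were read on the same arrays and RNA. Such probes, linked by symbol or accession, numbered 96 for 67 of the members, and 75 of them were eligible. Among these 75, 23 (30.7%) also had all 3 arrays at 6 h below the other 6, against 3.05% of the eligible probes that were not members. By the group means 63 (84%) were lower at 6 h than at both other times, against 42.1% of the eligible probes that were not members. Their median difference of 6 h from before feeding was -0.75 on the deposited log2 scale. For the 68 that share no run of 20 bases with the member, 18 had all 3 arrays at 6 h lowest, 56 were lower at both times and the median was -0.75.

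Other probes were lower at 6 h as well for RPS23, where 3 differed by -1.29, -0.97 and -0.77 at 6 h against before feeding, for EEF1G (-0.75, -0.54 and -0.52), for RPL4 (-0.81, -0.79, -0.65 and -0.75) and for STMN1 (-1.24 and -0.75), all on the deposited log2 scale. For other genes the probes disagreed. The HNRNPA1 member differed by -0.85, whereas the 4 other HNRNPA1 probes differed by 0.30, 0.25, 0.25 and 0.21, all higher at 6 h than before feeding. One RPL10 probe, A_72_P254467, had 473, 417 and 447 before feeding, 1099, 409 and 1230.2 at 6 h, and 234, 229.8 and 400.2 at 24 h, with replicates 1 and 3 far above every other array, whereas A_72_P061141 differed by -0.35 and the member by -0.57. Of the 3 other EIF4A1 probes 2 differed by 0.02 and 0.18, the third by -0.60. SLIRP's other probe, under the level minimum before feeding, differed by 0.61.

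**Figure D4:**
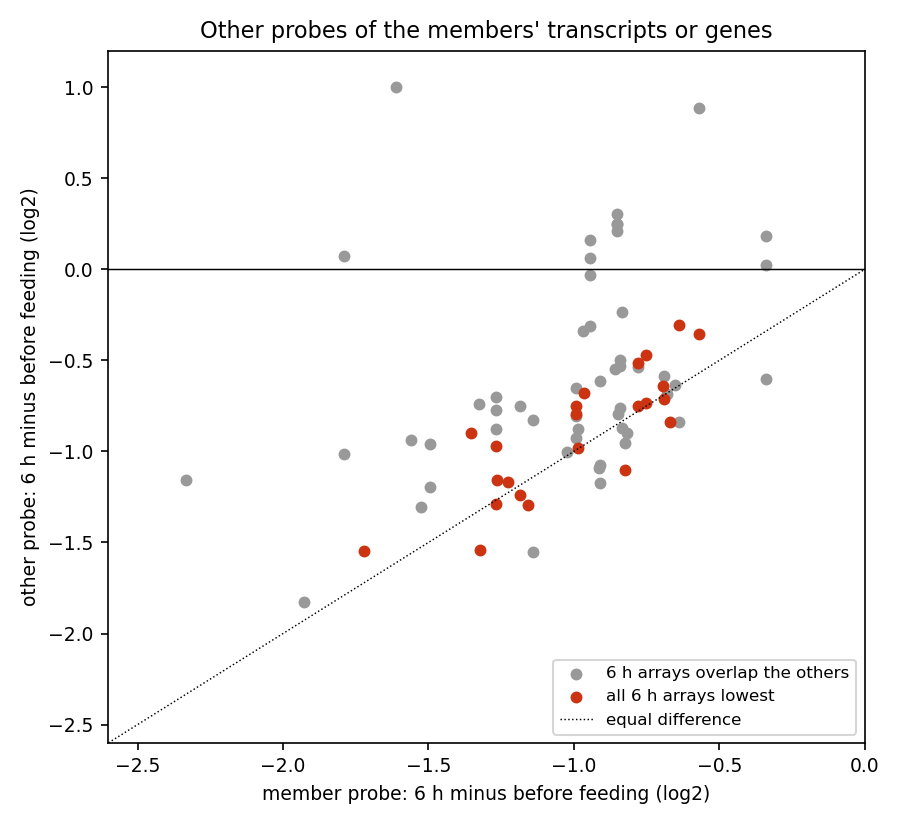
Difference of 6 h from before feeding on the deposited log2 scale for the 75 eligible other probes (y axis) against that of the linked member (x axis), 1 point per other probe. Of these, 23 (red) had all 3 arrays at 6 h lowest. The points above 0 include the 4 HNRNPA1 probes, 1 RPL10 probe and 2 EIF4A1 probes.

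The gene lists show where the members stand among their relatives, with 1 probe per gene in the fit over all 19783 tested probes. The lists hold only probes named by symbol, so members named through a description are not counted in them. Of the eligible probes of each list, 12 of 89 ribosomal protein, 3 of 30 translation factor, 2 of 41 RNA splicing and 2 of 16 T cell probes were members, against 200 of 13396 over all. For mitochondrial ribosome and import it was 2 of 5, both of them the overlapping TOMM7 probes of 1 gene. There were 0 members among 5 natural killer and cytotoxic, 4 B cell, 6 neutrophil, 7 platelet, 3 red cell, 34 proteasome and ubiquitin, 16 chromatin, 8 lipid and 19 lymphocyte signalling probes. Of the listed genes 0 passed the threshold in any of the 3 comparisons. On the scanner scale the T cell list had 9 of 11 genes lower at 6 h than before feeding, with a median of -0.76, and 8 of 11 higher at 24 h than at 6 h, with a median of 0.63. The natural killer list had 5 of 6 lower at 6 h (median -0.99), the translation factor list 7 of 9 (median -0.27) and the respiratory chain list 15 of 20 (median -0.50), against a median of 0.05 over all tested probes. The cell division list had 6 of 9 lower at 6 h, with a median of -0.65. At 24 h the natural killer list had 3 of 6 genes higher than at 6 h, with a median of 0.12, and 6 of 6 lower than before feeding, with a median of -0.68. The lymphocyte signalling list went the other way, with 15 of 20 genes higher at 6 h than before feeding and a median of 0.70, and 13 of 20 lower at 24 h than at 6 h. It had 13 to 15 of 20 higher at 6 h over the 5 scalings. The platelet list had 5 of 6 higher at 6 h (median 0.46), and the lipid list 5 of 7 lower (median -0.34). The proteasome list had 9 of 17 higher (median 0.17, but -0.10 after quantile normalization). For RNA splicing 13 of 21 were lower (median -0.10). After quantile normalization and on the deposited values it was 15 of 21, with a median of -0.39 in each. For chromatin 5 of 10 were lower (median -0.02) and for mitochondrial ribosome and import 3 of 3 (median -0.59). For B cells it was 2 of 2 (median -0.20) and for red cells 1 of 1 (-0.35).

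Most markers of neutrophils and monocytes moved against the members, higher at 6 h where the members were lower. The neutrophil list had 6 of 6 genes higher at 6 h than before feeding, with a median limma difference of 1.84, and 6 of 6 lower at 24 h than at 6 h, with a median of -1.70. The monocyte list had 8 of 9 higher at 6 h, with a median of 1.63, and 6 of 9 with the array median as the scaling. The summed deposited intensity of the 6 neutrophil markers was 42909, 47591 and 43961 before feeding, 95536, 81172 and 177640 at 6 h, and 50364, 58896 and 59208 at 24 h. For the 12 T cell markers the sum was 26219.5, 22046 and 23260.3 before feeding, 19309, 18704 and 16740 at 6 h, and 19867.5, 19257 and 19672 at 24 h. Replicate 3 at 6 h thus had the highest neutrophil sum, the lowest T cell sum and the lowest median of the 200 probes, and replicate 2 at 6 h had the lowest neutrophil sum and the highest median, whereas the highest T cell sum at 6 h was that of replicate 1. The part of the cell mixture in the members' values was not tested.

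Features of the members were set beside those of all eligible probes, without a test. Apart from the mean intensity, the rule did not use them. The members' median GC content was 36.7%, against 38.3% for the eligible probes. The letters AATAAA, the usual poly(A) signal, searched on the printed strand, were in 18.5% of members and 19.2% of eligible probes, and ATTTA was in 12% and 10.3%. Mean intensity over the 9 arrays ran from 39.3 to 31340.3, with a median of 277 against 313, and 32.5% of members were under 100 against 17.2% of eligible probes. This mean includes the arrays at 6 h, which are low by the choice of the members. The rule also used the intensities themselves, so nothing is read from the difference in intensity. The probes were spread over the array, from row 4 to row 527 of the scan grid with a median of 257.5, against 266. Of the 35 members whose description says that the clone was expressed in a named tissue, 10 came from thymus (28.6%), against 15.2% of 2917 eligible probes so described, and 6 came from ovary (17.1%, against 28.2%). Clones described only by the name of a library, such as the backfat, testis and mesenteric lymph node clones named above, are not in these counts. These shares were not tested.

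In the limma fit over all probes, 5 of 19783 passed an adjusted p of 0.05 at 6 h against before feeding (0.0253%), all of them higher at 6 h, and 0 were lower. Accordingly 0 of the 200 members passed, and their smallest adjusted p was 0.0597. At an unadjusted p under 0.05, 169 of the 200 members and 5050 of all tested probes (25.5%) were counted. At 24 h against 6 h no probe passed (0%), with 127 members and 4270 probes (21.6%) at the unadjusted level. Since the rule used both comparisons, nothing about the members is read from these counts. Without 6 h replicate 2, whose values were nearest to the other times, 2396 probes passed at 6 h against before feeding, 953 of them lower, with 89 members among them, and 1767 passed at 24 h against 6 h, with 40 members. At 6 h against before feeding 25 probes passed without 24 h replicate 3, 6 without replicate 2 before feeding and 0 without any other single array. At 24 h against before feeding no member and no other probe passed (0%), and 8 members and 2745 probes (13.9%) did so at the unadjusted level. The members' median limma difference was -0.996 at 6 h against before feeding, 0.80 at 24 h against 6 h and -0.19 at 24 h against before feeding, against 0.05, -0.09 and -0.01 over all tested probes.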

How the data were processed

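RNA from PAXgene-stabilized whole blood was hybridized to 1-colour Agilent pig arrays, 3 per time point. The scanner files hold intensity per spot, deposited by the authors as Feature Extraction output (version 10.5.1.1 per the file headers, 9.5.3.1 in the submitters' processing notes). The deposited series-wide table holds linear intensity, and how the authors normalized it is not stated in the labels or headers. Its values behaved like quantile-normalized processed signal. Columns of other samples in it numbered 0. The 200 members were chosen from log2 of that table. For the fit, spots of one probe were averaged, control spots and outlier flags were left out, and the processed signal was taken to log2 and centred on the 75th percentile of its array for 43596 probes. The 19783 probes that passed the filter on dim probes were tested with limma 3.58.1 (R 4.3.3, lmFit and eBayes, 6 residual and 4.6 prior degrees of freedom), and p-values were adjusted by Benjamini-Hochberg over all of them. Tables were handled in Python 3.11.15 with pandas 2.3.3. In simulated data for 6 h against before feeding, with 19783 probes, probes lowered by 2 on the log2 scale were recovered in 61.5% of cases, and those lowered by 1 in 4%. The simulated noise was drawn independently for each probe and array, and most probes were left unchanged. In the measured data 25.5% of tested probes had an unadjusted limma p under 0.05, so these percentages need not hold there. The number of arrays limits the precision. Probes were named from the scanner files' gene names and descriptions and from the RefSeq gene table. Named members were described in order of score, up to 30 with every array, with all members of the gene lists, 5 unnamed probes and the 3 probes on each side of the last score. The values of 1 named member are not reported here. The members and lists were chosen with earlier results of these data known. The alternatives were other scalings, background correction, filters and fits, level minimums of 20 and 100, and leaving out each array.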

Additional observations from a re-analysis of the deposited data

How the results depend on the processing

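At 6 h against before feeding limma called 5 probes. The count was 8 after quantile normalization and 8 on the deposited values, and 0 with normexp, with only probes well above background on all 9 arrays, with no filter, with the trend and robust fit and with only the arrays compared. Leaving out 1 array gave 0 to 2396 calls, with 2396 without 6 h replicate 2 and 25 without 24 h replicate 3. At 24 h against 6 h, 0 calls became 0 to 1767, the 1767 again without 6 h replicate 2 (40 members among them). At 24 h against before feeding, 0 became 6 after quantile normalization and 6 on the deposited values, and stayed at 0 with any 1 array left out. Deviations of equally numbered arrays correlated between -0.20 and 0.64, with 6 of 9 pairs above 0, which does not settle whether equal numbers are one animal. With the replicate number as a block, 620 probes were called at 6 h against before feeding, 83 of them lower and 10 of them members, and 0 in the other comparisons. The members' median difference at 6 h was -0.62 with normexp, and -1.08 to -0.83 with 1 array left out. It was 0.64 to 0.95 at 24 h against 6 h and -0.28 to -0.11 at 24 h against before feeding with 1 array left out. The number of eligible probes with a score above 0 was 351 on the 75th-percentile scale, with 145 of its first 200 shared. It was 616 to 2655 with 1 array left out, with 2655 without 6 h replicate 2, 1616 without replicate 2 before feeding and 986 without 6 h replicate 1, and then 42, 45 and 102 of the first 200 were shared. The members with all arrays at 6 h lowest on the 75th-percentile scale numbered 157 with normexp and 163 to 189 with 1 array left out. Of 1617 values of 30 named members, 1529 stayed within the spread, 84 moved and 4 reversed. The 4 were C14orf111 A_72_P361393, 24 h against before feeding, at 0.0419 with normexp, RPLP0 A_72_P271784, 24 h against before feeding, at 0.0904 with normexp and 0.0208 on the deposited values, and RPL10 A_72_P052661, 24 h against before feeding, at 0.0268 on the deposited values. The causes were not tested.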
